A study of Mus with 2 samples.

Results

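The collagen gene family was described in 2 Visium sections of mouse tumors. Members were all genes whose symbol consists of Col, a type number, the letter a and a chain number, with at least 20 UMIs (unique molecular identifiers, each standing for 1 captured transcript) over both sections. Of 44 such symbols among 32285 features, 26 met this rule, 11 had between 1 and 19 UMIs and 7 had none, which left most chains of cartilage (Col2a1, Col9a1, Col10a1, Col11a1) and the type IV chains Col4a3, Col4a4 and Col4a6 outside the set. Both tumors grew from 200000 CT26 cells, an established colon carcinoma line of BALB/c origin, placed under the skin of BALB/c mice aged 6 to 8 weeks, and were taken at day 15. The rIL7 mouse received 10 µg of recombinant mouse interleukin 7 into the peritoneum on day 11 and again on day 13, and the control mouse received PBS. Each group was 1 section of 10 µm from 1 tumor, so that treatment cannot be told apart from animal, tumor, section or library, and no comparison between the sections carries a test.

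Collagens are secreted or membrane-bound proteins with a triple helix built from chains that are encoded by separate genes. Fibrillar types such as I, III and V form the tensile fibers of connective tissue. Type IV forms the network of basement membranes, the sheets that lie under epithelia and around vessels, and the remaining classes bead along, coat, anchor or cross-link these structures. In solid tumors collagen is mainly laid down in the stroma and capsule, largely by fibroblasts. Here UMIs were counted at the 3′ end of each transcript, once per molecule and without division by length, so levels of different chains are given as counts per 1000000 UMIs (CPM) and may still differ in capture.

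After the spot filter, the control section kept 2219 spots with 22951678 UMIs and the rIL7 section kept 1950 spots with 25729233 UMIs. A spot can hold several cells, and a lower level in a group of spots may mean fewer cells of a type or less RNA per cell, which cannot be told apart. The CT26 markers Rpl39l and Baiap2l1 together were at 1293 CPM in control and 1043 CPM in rIL7 tissue. The sections also differed in tissue other than tumor: Krt5 and Krt14, keratins of basal keratinocytes, had 196 and 250 UMIs in the control but 0 and 1 in the rIL7 section, and the 5 skeletal muscle markers summed to 63.9 against 6.96 CPM. Spots with either kind of marker made up 7.75% of control spots and 0.103% of rIL7 spots. The 2 sections shared 1702 spot barcodes, which stand for fixed array positions and not for shared cells.

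Collagen genes took 0.276% of all control UMIs and 0.291% of all rIL7 UMIs. The 26 members were led by the fibrillar class, with 59.6% of the members' UMIs in the control section and 60.7% after rIL7. Col1a2, the α2 chain of type I collagen (ENSMUSG00000029661, GRCm38.p6 chr6:4505618-4541543), was the most abundant member at 856 CPM in control and 843 CPM in rIL7 tissue. Col3a1, the only chain of type III (ENSMUSG00000026043, chr1:45311538-45349706), followed at 443 and 520 CPM. Col16a1, a fibril-associated chain (ENSMUSG00000040690, chr4:130047817-130099277), came next, ahead of Col1a1 (ENSMUSG00000001506, chr11:94936224-94953042), at 278 and 317 CPM against 202 and 235 CPM. Thus the α1 chain of type I, the chain of which its helix takes more copies, had fewer UMIs than the α2 chain in both sections.

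**Figure D1:**
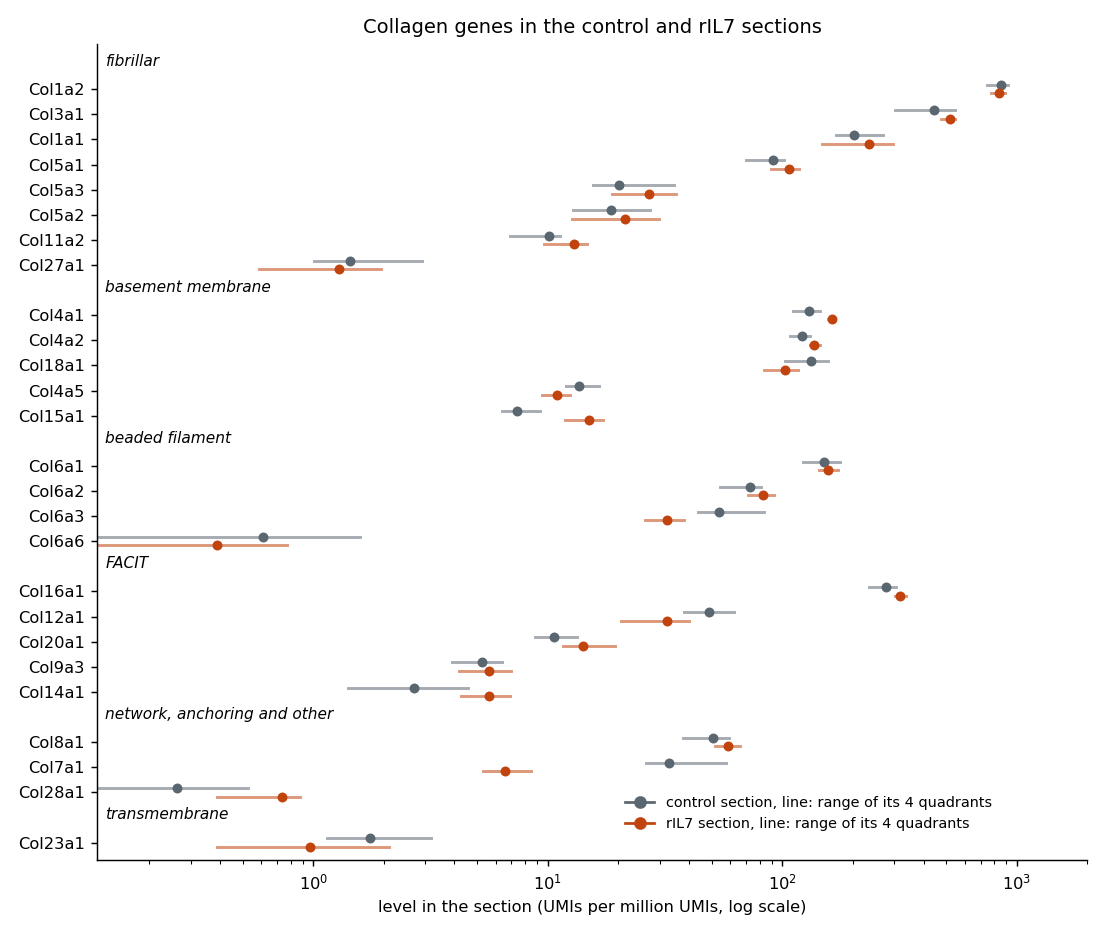
Level of each of the 26 collagen genes (x axis, CPM, log scale) in the control (grey) and rIL7 (orange) section, grouped by class. Points are whole-section levels and lines the range over the 4 quadrants of a section, which are not replicates (a line that meets the left axis includes a quadrant at 0). Ranges overlap for most genes, with Col7a1 and Col6a3 lower and Col15a1 and Col4a1 higher in all rIL7 quadrants. Of all genes with at least 20 UMIs, 9.77% were lower and 9.74% higher in this way.

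Summed over whole sections, most collagen classes were at nearly the same level after rIL7 as in the control. The 8 fibrillar genes summed to 1642 CPM (95% counting interval 1626 to 1659) in the control and 1767 CPM (1751 to 1783) after rIL7, giving a ratio of 1.08. The control quadrants spanned 1331 to 1806 CPM and the rIL7 quadrants 1531 to 1928 CPM, so that the spread within a section was larger than the difference. The 5 basement membrane genes were at 405 and 430 CPM (ratio 1.06), the 4 genes of the beaded type VI class at 279 and 272 CPM (ratio 0.98) and the 5 FACIT genes, whose products sit on the surface of fibrils, at 345 and 374 CPM (ratio 1.08). The 3 genes of the network and anchoring class had a lower sum, at 83.7 CPM for control and 66.2 CPM for rIL7. There the quadrants did not overlap (75.0 to 95.8 against 57.8 to 72.1 CPM). Of its members only Col7a1 was lower, with 751 control and 169 rIL7 UMIs, while Col8a1 had 1163 and 1514 and Col28a1 6 and 19. The intervals cover counting error only.

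Single members differed more than the sums. Of 26 members, 3 were at least 1.5-fold higher in the rIL7 section (Col15a1, Col14a1 and Col28a1), where 7.72% of the 14313 genes with at least 20 UMIs were. On the lower side were 5 members (Col7a1, Col6a3, Col12a1, Col23a1 and Col6a6), against 5.95% of all genes. The median log2 ratio of the members was 0.19 and that of all genes -0.0022. All 4 rIL7 quadrants lay above all 4 control quadrants for 2 members (Col4a1 and Col15a1) and below them for 2 others (Col6a3 and Col7a1), while 9.74% and 9.77% of all genes did so in either direction.

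Col7a1, the anchoring fibril chain that fastens the epidermal basement membrane to the dermis (ENSMUSG00000025650, chr9:108953586-108984875), showed the widest gap between the sections among members with at least 500 UMIs. It had 751 control UMIs (32.7 CPM, quadrants 26.2 to 57.4) and 169 rIL7 UMIs (6.57 CPM, quadrants 5.27 to 8.49), a rIL7/control ratio of 0.201 (counting interval 0.169 to 0.237). In the control it declined from 55.3 CPM in the outermost ring of spots to 22.4 CPM in the deepest ring, whereas in the rIL7 section it stayed between 5.02 and 9.93 CPM throughout. The 47 control spots with a Krt5 or Krt14 UMI held Col7a1 at 65.5 CPM, while the other 2172 control spots still held it at 32.0 CPM. Krt10, the most abundant of the keratinocyte markers, was at 39.0 CPM in control and 37.5 CPM in rIL7 tissue, so that the lower level of Col7a1 was shared by Krt5 and Krt14 and not by Krt10. The part of these cells in the Col7a1 difference was not tested. Without the spots that carried skin or muscle markers, its log2 ratio was -2.28, compared with -2.32 over all spots.

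Col6a3, the long α3 chain of type VI that carries many von Willebrand factor A domains (ENSMUSG00000048126, chr1:90766860-90844001), was at 53.6 CPM (quadrants 43.8 to 83.9) in control and 32.3 CPM (26.1 to 38.0) in rIL7 tissue, a ratio of 0.602. Col12a1, a FACIT chain that bridges type I fibrils, was at 48.9 and 32.2 CPM (ratio 0.659), and its quadrants overlapped. For both genes the deficit lay inside the tumor: at the edge the ratios were 1.07 and 1.0, and in the interior 0.447 and 0.575. The partner chains of Col6a3 did not share it, with Col6a1 at 151 and 157 CPM and Col6a2 at 73.2 and 83.1 CPM.

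Col15a1, a basement membrane zone collagen with heparan and chondroitin sulfate chains (ENSMUSG00000028339, chr4:47207655-47313167), had 170 control and 386 rIL7 UMIs, or 7.41 CPM (quadrants 6.39 to 9.26) against 15.0 CPM (11.9 to 17.3), a ratio of 2.03 (1.69 to 2.44). Col4a1, one of the type IV chains found in nearly all basement membranes (ENSMUSG00000031502, chr8:11198423-11312889), was at 130 CPM (quadrants 111 to 144) and 164 CPM (157 to 168), a ratio of 1.26. Its partner Col4a2 (ENSMUSG00000031503, chr8:11312805-11449287) was at 121 and 137 CPM, with quadrants that just overlapped. Col18a1, the heparan sulfate collagen from which endostatin is cut, went the other way within the same class, at 133 and 103 CPM (ratio 0.775). Col4a5, an X-linked type IV chain, was at 13.6 and 10.9 CPM. The type IV chains together were at 265 CPM in control and 312 CPM in rIL7 tissue, and their quadrants did not overlap (232 to 293 against 301 to 324 CPM).

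Col16a1, the type V chains Col5a1, Col5a2 and Col5a3, Col8a1 (a network collagen of vessel walls), Col20a1 and Col11a2 had rIL7/control ratios between 1.14 and 1.34, and Col1a1 and Col3a1 had ratios of 1.16 and 1.17. All of these had overlapping quadrants. Among sparse members, Col14a1, which coats fibrils in skin and tendon, had 62 and 144 UMIs (ratio 2.07, counting interval 1.53 to 2.84), Col28a1 had 6 and 19 UMIs (ratio 2.82, 1.08 to 8.64), and the transmembrane Col23a1 had 40 and 25 UMIs (ratio 0.557, 0.324 to 0.942). Col27a1, Col9a3 and Col6a6 had counting intervals that included 1.

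The position in the tumor gave a much clearer pattern than the section as a whole. Spots were placed by their number of steps on the hexagonal grid from the tissue outline, and edge spots were those within 2 steps, 401 control and 330 rIL7 spots. In the rIL7 section fibrillar collagen was 2.19-fold higher at the edge (3169 CPM) than in the interior (1448 CPM), whereas in the control the levels were 1664 and 1636 CPM, a ratio of 1.02. In the 4 quadrants the ratio was 1.15 to 3.23 after rIL7 and 0.913 to 1.11 in the control, with the lowest rIL7 quadrant above the highest control quadrant. Edge against edge, the rIL7 section was 1.90-fold higher than the control, and interior against interior it was 0.885-fold. The edge level of the lowest rIL7 quadrant, 1701 CPM, was within the range of the control edge quadrants (1445 to 1855 CPM).

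**Figure D2:**
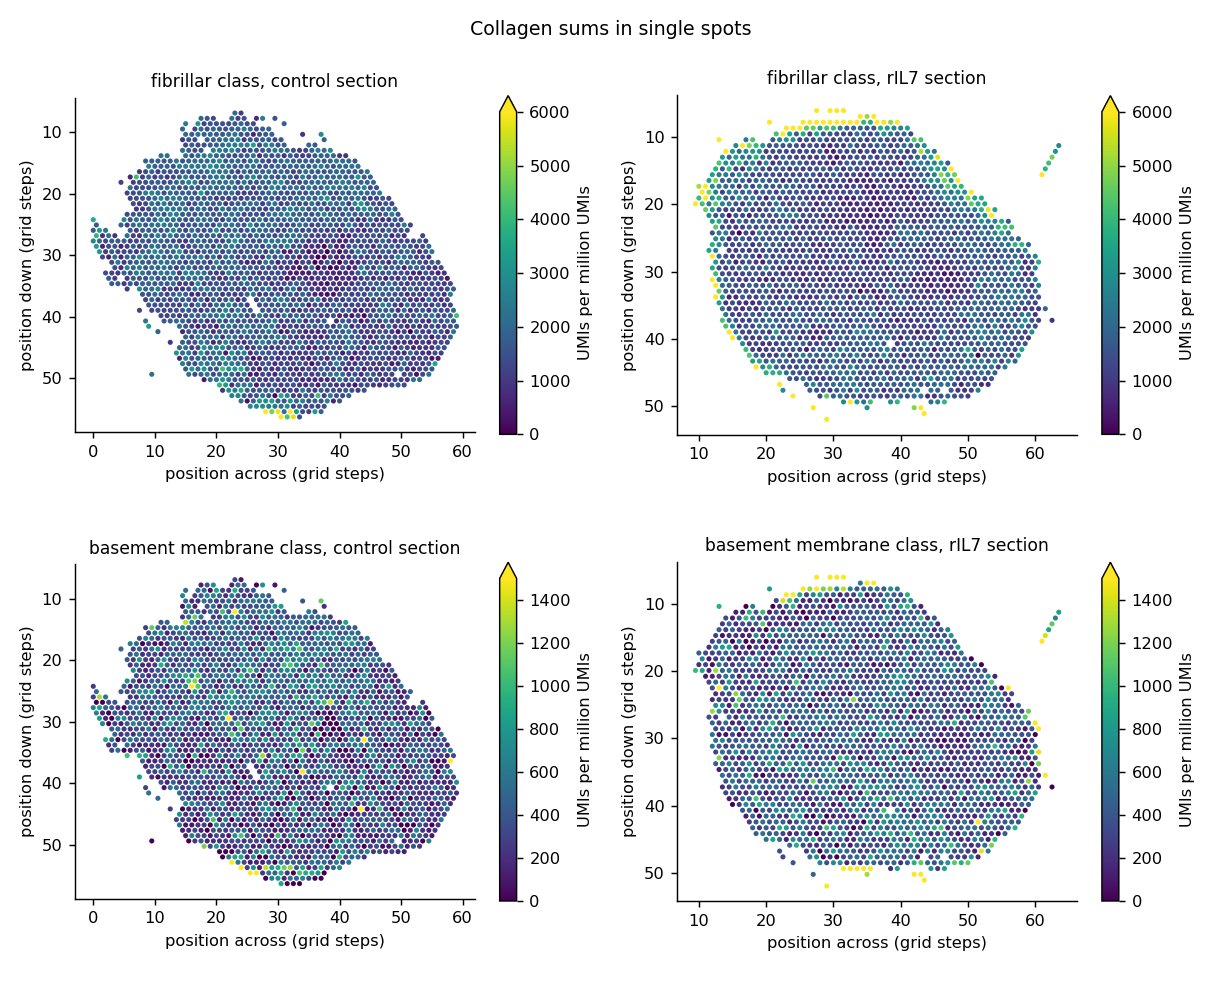
Summed fibrillar (top) and basement membrane (bottom) level in CPM in each spot of the control (left) and rIL7 (right) section, with both axes in grid steps. Colors stop at 6000 for the fibrillar class and at 1500 for the basement membrane class, so higher spots share the top color. In the rIL7 section 35 of 330 edge spots were above 6000 for the fibrillar class and 0 of 1599 interior spots, against 3 of 401 and 0 of 1806 in the control. Outside the main piece, 12 of 21 rIL7 spots and 0 of 12 control spots were above it.

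The ring profile showed how narrow this band was. Fibrillar collagen in the rIL7 section was at 4138 CPM in the outermost ring, 2335 CPM at step 2, 1946 CPM at step 3 and 1703 CPM at step 4, and then declined slowly to 1201 CPM at 12 or more steps. In the control it stayed between 1513 and 1728 CPM in all 8 rings. The sections met at step 4, and from 5 steps inward the rIL7 section was the lower. Another 21 rIL7 spots lay outside the main piece of tissue, with a median of 7799 CPM of fibrillar collagen, and 12 such control spots had a median of 1860 CPM. These spots count in the whole sections and in no ring.

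**Figure D3:**
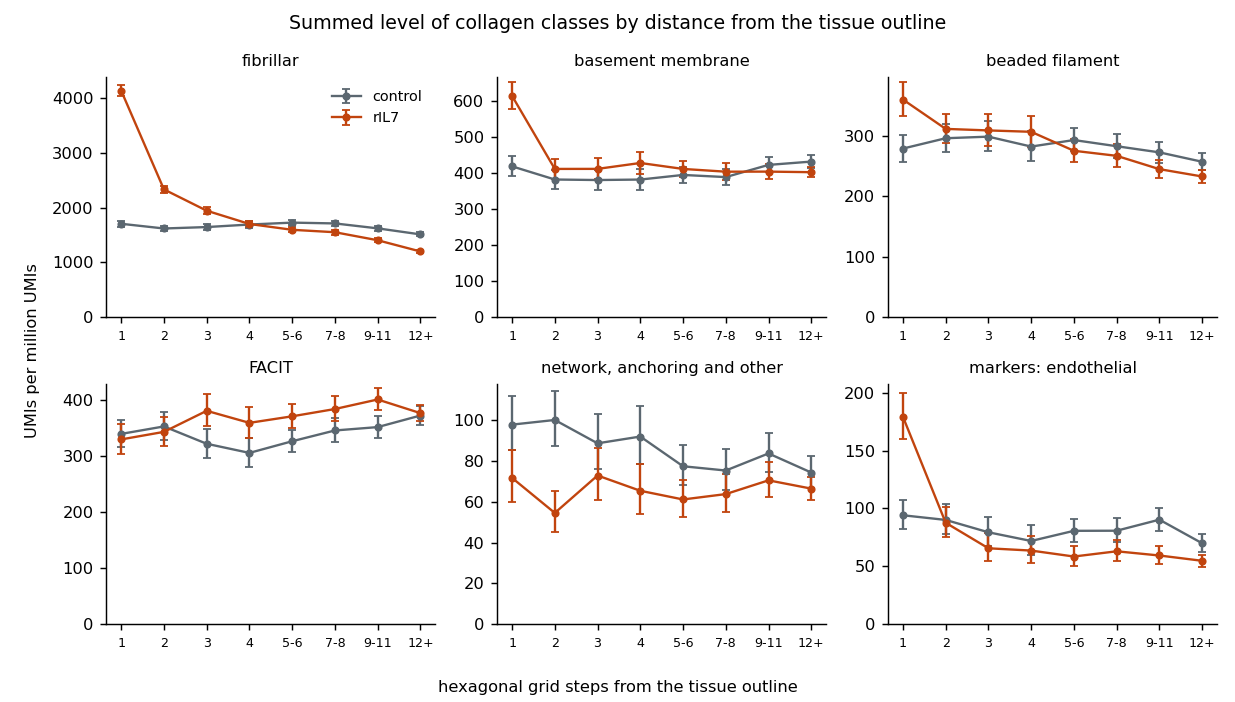
Summed level (y axis, CPM, starting at 0) of 5 collagen classes and of the 7 endothelial markers in 8 rings of spots at increasing distance from the tissue outline (x axis, grid steps), for the control (grey) and rIL7 (orange) section. Bars are 95% counting intervals. The fibrillar class reached 4138 in the outermost rIL7 ring against 1707 in the control, while the FACIT class had 330 and 340 there.

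Over all members, 13 of 26 were at least 1.5-fold higher at the edge of the rIL7 section, where 14.2% of genes were, and 2 were lower (Col20a1 and Col11a2), against 10.3% of genes. In the control section 6 were higher (Col12a1, Col5a3, Col5a2, Col7a1, Col15a1 and Col23a1), against 5.4% of genes, and 2 were lower (Col11a2 and Col14a1), against 7.63%. The median log2 edge ratio of the members was 0.62 in the rIL7 section and -0.0015 in the control, where all genes had medians of -0.04 and -0.05. Between the edges of the 2 sections, 10 members were higher in rIL7 (16.5% of genes) and 3 were lower (Col18a1, Col7a1 and Col23a1; 11.1% of genes). Between the interiors, 0 members were higher (6.55% of genes) and 7 were lower (7.1% of genes), namely Col6a3, Col12a1, Col5a2, Col7a1, Col27a1, Col23a1 and Col6a6.

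Within the fibrillar class, the edge effect differed widely between chains. Col5a2, the α2 chain of type V that joins type I in mixed fibrils (ENSMUSG00000026042, chr1:45374331-45503282), had the widest edge ratio among members with at least 500 UMIs, at 72.1 CPM in edge and 9.62 CPM in interior spots of the rIL7 section (7.5-fold, counting interval 6.25 to 9.02). In the control its levels were 26.0 and 16.4 CPM (1.58-fold). Col1a1 followed a similar course, at 672 and 142 CPM in the rIL7 section (4.75-fold, quadrants 1.67 to 6.94) and 248 and 191 CPM in the control (1.3-fold, quadrants 1.17 to 1.54). Col5a3 was 4.53-fold higher at the rIL7 edge and 1.52-fold at the control edge. For these 3 chains the control edge was already the higher region, and the rIL7 edge was higher by a larger ratio.

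For Col3a1 the edge was slightly the lower region in the control as a whole, though not in every quadrant, and the higher one in the rIL7 section. Its edge level was 405 CPM and its interior level 452 CPM in the control (0.898-fold, quadrants 0.735 to 1.05, with 2 of 4 above 1), and in the rIL7 section they were 1029 and 396 CPM (2.60-fold, quadrants 1.31 to 4.28). All 4 rIL7 edge quadrants (582 to 1429 CPM) lay above all control edge quadrants (312 to 444 CPM). This held for 7 of 26 members (Col3a1, Col4a1, Col4a2, Col5a2, Col15a1, Col14a1 and Col28a1), where 8.41% of all genes did so. The reverse held for 2 (Col18a1 and Col7a1), against 7.06% of all genes. Of the 7, Col28a1 had 0 UMIs in each control edge quadrant and 3, 1, 1 and 2 in the rIL7 ones. Col14a1 had 2, 1, 1 and 0 against 19, 13, 3 and 5, so both rest on few UMIs. Col1a2 and Col5a1 had smaller edge ratios, 1.497 and 1.58 in the rIL7 section and 1.0 and 1.04 in the control, and for both the lowest rIL7 quadrant was under 1 (0.941 and 0.80). Col11a2, a minor fibrillar chain best known from cartilage, was lower at the edge in both sections, at 7.16 and 10.9 CPM in the control and 7.39 and 14.0 CPM in the rIL7 section. The fibrillar pattern was thus that of 6 of 8 genes, where 14.2% of all genes were at least 1.5-fold higher at the rIL7 edge. Of these 6, Col27a1 had only 5, 2, 3 and 1 edge UMIs in the 4 rIL7 quadrants. Col1a2 was just under the 1.5-fold limit and Col11a2 went in the opposite direction.

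**Figure D4:**
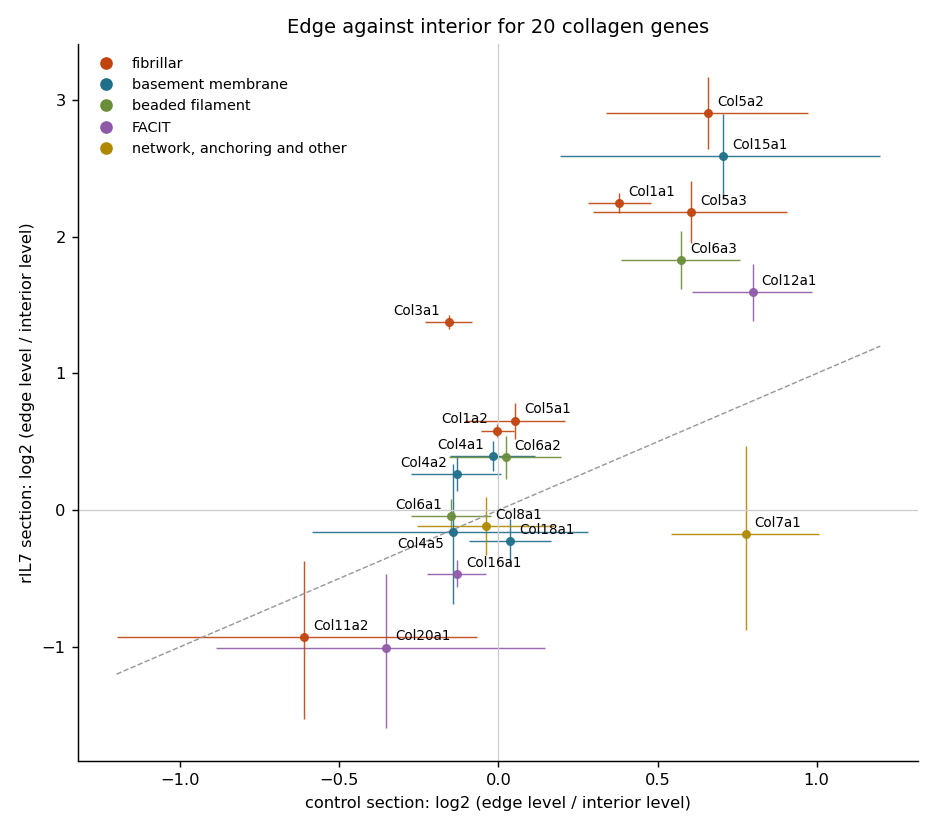
Log2 ratio of edge to interior level for the 20 collagen genes with at least 500 UMIs, in the control (x axis) and rIL7 (y axis) section, colored by class, with 95% counting intervals. The dashed line marks equal ratios. Col5a2, Col15a1, Col1a1 and Col5a3 lie highest above it, Col3a1 lies left of 0 in the control, and Col7a1 lies below the line.

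Outside the fibrillar class, 7 of 18 genes were at least 1.5-fold higher at the rIL7 edge, against 14.2% of all genes, and of these Col23a1, Col28a1 and Col6a6 had only 6, 7 and 3 edge UMIs. Among basement membrane genes, Col15a1 was at 47.4 CPM in edge and 7.86 CPM in interior spots of the rIL7 section (6.03-fold, counting interval 4.87 to 7.47, quadrants 3.63 to 8.18), and at 10.7 and 6.58 CPM in the control (1.63-fold). Its interior levels were thus close in both sections. Col4a1 was at 201 and 153 CPM (1.32-fold) in the rIL7 section and 129 and 130 CPM (0.988-fold) in the control, and Col4a2 at 157 and 131 CPM (1.2-fold) against 112 and 123 CPM (0.913-fold). For these 3 genes all rIL7 edge quadrants lay above all control edge quadrants. For both type IV chains the excess sat in the outermost ring, where Col4a1 was at 239 CPM against 168 CPM in the next ring. Col18a1 had no such excess, at 89.7 CPM at the rIL7 edge and 136 CPM at the control edge, and all its rIL7 edge quadrants lay below those of the control.

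Type VI chains split in the same manner. Col6a3 was at 77.5 CPM in edge and 21.8 CPM in interior spots of the rIL7 section (3.55-fold, quadrants 2.89 to 4.21), and at 72.7 and 48.8 CPM in the control (1.49-fold). Col6a2 had edge ratios of 1.31 and 1.02, and Col6a1 of 0.970 and 0.902. Among FACIT genes, Col12a1 was at 73.7 CPM at the rIL7 edge and 73.8 CPM at the control edge, with interior levels of 24.4 and 42.4 CPM (3.02-fold and 1.74-fold). Col16a1, the most abundant of them, went the other way: in the rIL7 section it was at 217 CPM in the outermost ring and 352 CPM at 9 to 11 steps, an edge ratio of 0.724 (quadrants 0.637 to 0.771), and in the control its edge ratio was 0.914. Col20a1 had edge ratios of 0.498 and 0.782. Col14a1 had 40 UMIs at the rIL7 edge and 4 at the control edge, with edge ratios of 2.72 (counting interval 1.82 to 4.02) and 0.284 (0.0748 to 0.766). In its quadrants the ratio was 0.795 to 9.01 after rIL7 and 0 to 0.548 in the control. Col8a1 was close to level in both sections, with 0.922 and 0.973.

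**Figure D5:**
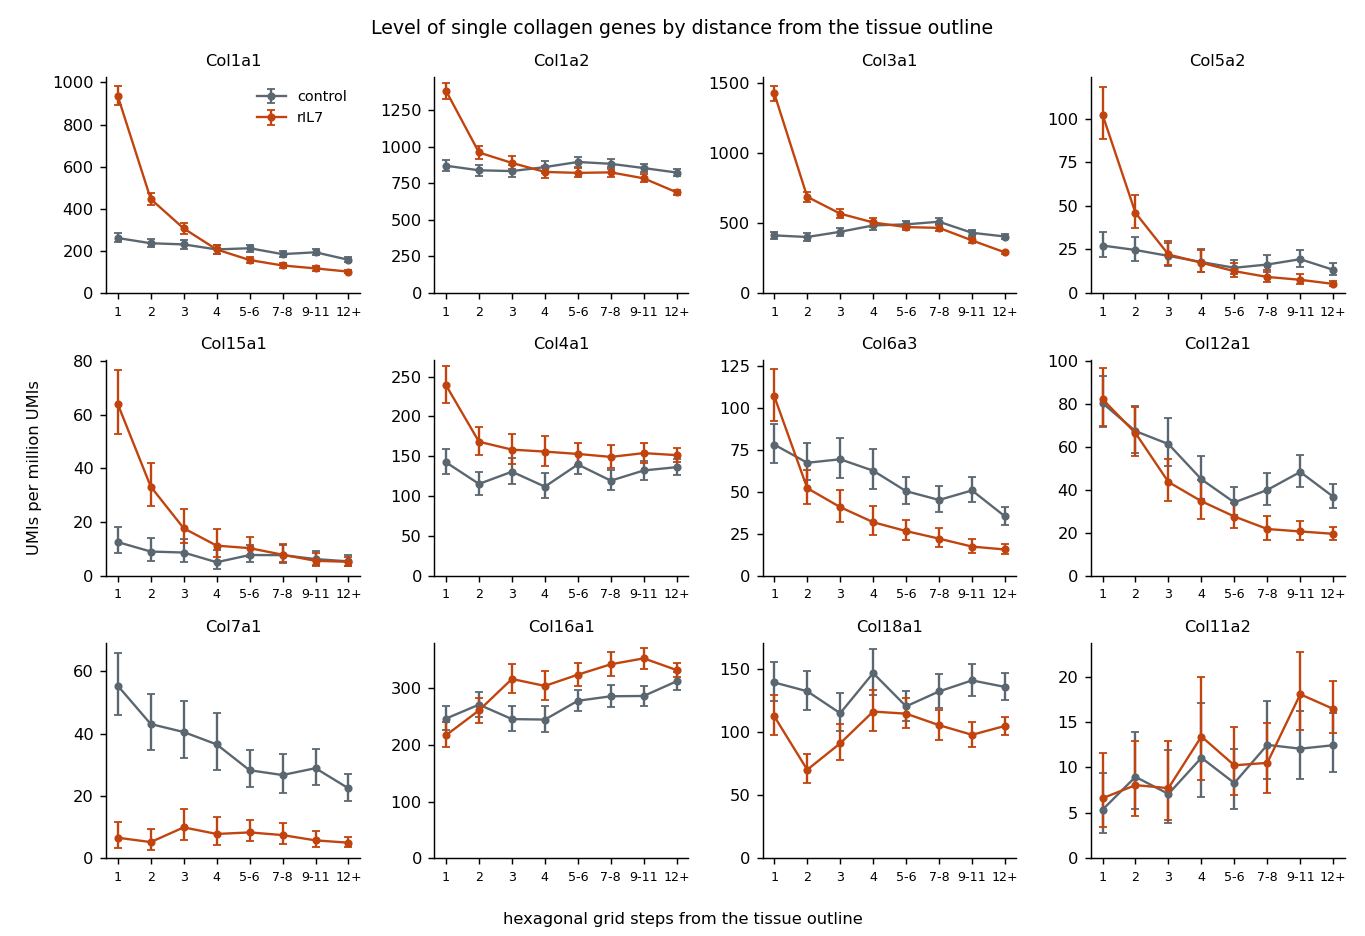
Level of 12 collagen genes (y axis, CPM, starting at 0, with its own scale in each panel) in 8 rings of spots from the tissue outline inward (x axis, grid steps), for the control (grey) and rIL7 (orange) section, with 95% counting intervals. Col1a1 in the rIL7 section runs from 935 in the outermost ring to 100.8 in the deepest, Col16a1 rises from 217 to 352 at 9 to 11 steps, and Col7a1 in the control declines from 55.3 to 22.4.

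Because chains of one collagen type are assembled together, their UMI ratios were followed across the rings; a ratio within a region does not depend on its total depth. The ratio of Col1a2 to Col1a1 in the rIL7 section was 1.48 (counting interval 1.39 to 1.57) in the outermost ring and 6.83 (6.34 to 7.36) at 12 or more steps. In the control it was 3.34 (3.04 to 3.67) and 5.24 (4.85 to 5.67). The same held for type VI and type V: Col6a1 to Col6a3 went from 1.35 to 9.27 in the rIL7 section and from 1.65 to 4.39 in the control, and Col5a1 to Col5a2 from 1.72 to 17.9 and from 3.69 to 6.55. The type IV ratio moved little, with Col4a1 to Col4a2 at 1.3 and 1.15 in the outermost and deepest rIL7 rings and at 1.3 and 0.965 in the control. Within type VI, Col6a1 to Col6a2 changed less than Col6a1 to Col6a3, from 1.34 to 1.99 in the rIL7 section and from 1.83 to 2.36 in the control. The gradient was therefore present in both sections for Col1a2 to Col1a1, Col6a1 to Col6a3 and Col5a1 to Col5a2. It was steeper in the rIL7 section for these pairs, but the difference in slope was not tested.

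Some members are neighbors in the genome. Col4a1 and Col4a2 overlap by 85 bases at their ends on chromosome 8. In the rIL7 section both were highest in the outermost ring. In the control Col4a1 was highest there (142 CPM) and Col4a2 in the deepest ring (141 CPM). Col3a1 and Col5a2 lie 24624 bases apart on chromosome 1, and their control edge ratios were 0.898 and 1.58. Col6a2 and Col6a1 lie 85161 bases apart on chromosome 10.

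Single spots were also unequal in fibrillar level, here over whole sections with the spots outside the main piece included. The highest rIL7 spot lay outside the main piece, at 24626 CPM, and the highest at the edge was at 15895 CPM. Each spot was thinned to 5000 UMIs, which kept 2090 control and 1901 rIL7 spots and left out 129 and 49 shallower ones. Fibrillar UMIs per thinned spot averaged 8.08 for control and 9.0 for rIL7, but their variance was 1.52 times the mean for control and 7.73 times for rIL7, where counting alone gives 1. The highest spot had 29 fibrillar UMIs for control and 136 for rIL7. Col3a1 (1.26 and 5.02), Col1a1 (1.48 and 4.22) and Col5a2 (1.06 and 2.00) had a higher ratio of variance to mean in the rIL7 section, whereas Col16a1 (1.03 and 1.02), Col6a1 (1.04 and 0.956) and Col8a1 (0.983 and 1.02) had ratios near 1 in both. For basement membrane genes the ratio was 1.23 and 1.47. The tenth of spots with most Col1a1 held 36.8% of its thinned UMIs for control and 51.6% for rIL7. Across the thinned spots, the Spearman rho of the fibrillar with the basement membrane sum was 0.04 for control and 0.09 for rIL7 spots, too weak in such sparse counts to be read.

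Markers of several cell types were also higher at the rIL7 edge, where 14.2% of all genes were. All 7 endothelial markers were at least 1.5-fold higher there (summed edge ratio 2.20, against 1.17 in the control), as were 5 of 6 mural markers (1.89 against 1.04), all 3 measured adipocyte markers (1.75 against 0.750), all 5 T cell markers (3.49 against 1.14) and 5 of 7 macrophage markers (1.74 against 1.1). At the control edge, 2 of the 3 adipocyte markers and 1 of 6 mural markers were at least 1.5-fold higher, where 5.4% of all genes were. The endothelial, T cell and macrophage lists had 0 higher there, and 1 endothelial and 1 mural marker were lower (7.63% of all genes). The adipocyte sum of 0.750 thus went the other way from 2 of its 3 measured genes. Of 8 fibroblast markers, 3 were higher at the rIL7 edge, namely Pi16 (10.6-fold), Lum (6.98-fold) and Postn (5.81-fold), while Pdgfra was lower (0.558-fold) and the summed ratio was 0.839 against 0.882 in the control. The 2 CT26 markers had a summed edge ratio of 0.691 in the rIL7 section and 0.916 in the control. Of the 3 measured keratinocyte markers, Krt5 and Krt14 were at the control edge and nearly absent from the rIL7 section, whereas Krt10 had edge ratios of 0.922 in the control and 0.749 after rIL7, and of the chondrocyte and bone markers only Comp passed 20 UMIs. Over whole sections the fibroblast list was at 535 and 739 CPM (quadrants 391 to 638 and 716 to 762), the endothelial list at 81.5 and 72.3 CPM and the mural list at 76.9 and 72.1 CPM. The part of these cells in the collagen edge ratios was not tested. Control spots with at least 3 muscle marker UMIs held fibrillar collagen at 1598 CPM and the other control spots at 1645 CPM.

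At the rIL7 edge, 2 of 14 measured genes of prolyl and lysyl hydroxylation and 0 of 9 folding and secretion genes were at least 1.5-fold higher. So were 2 of 5 propeptide cleavage genes and 3 of 6 cross-linking genes, where 14.2% of all genes were. In these lists 0 were lower, against 10.3% of all genes. At the control edge the counts were 1, 0, 1 and 1 higher in the same order, where 5.4% of all genes were. There too 0 were lower, against 7.63% of all genes. Over whole sections the shares of all genes were 7.72% higher and 5.95% lower. Of the 14 hydroxylation genes, 3 were at least 1.5-fold higher over the rIL7 section (P4ha3 2.63-fold, P3h2 1.61-fold and P4ha2 1.54-fold) and 0 were lower, while the abundant P4hb and Ppib had ratios of 1.04 and 0.944. Of the 9 folding genes none passed either limit: Serpinh1, the collagen chaperone HSP47, had a ratio of 0.917, Hsp90b1 of 1.12, Sec23a of 1.23 and Mia2 of 0.832. Of the 5 propeptide cleavage genes none passed either, with Pcolce and Bmp1 at 0.976 and 0.978 and Pcolce2 at 1.37. Adamts2, the main N-propeptidase of types I and III, had a ratio of 0.677 but an edge ratio of 5.55 in the rIL7 section and 1.51 in the control. Of the 6 cross-linking genes, 2 were higher over the rIL7 section: Tgm2 (2.82-fold) and Lox (2.70-fold), and the edge ratio of Lox was 9.16 in the rIL7 section and 2.54 in the control. Loxl3, the most abundant of the list, was at 1.09.

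Among the binding partners, receptors and enzymes of degradation, the counts past 1.5-fold at the rIL7 edge were 3 higher and 2 lower of 11 fibril-binding genes, 2 and 2 of 14 basement membrane genes, 3 and 0 of 9 receptors and 1 and 3 of 9 degradation genes, against 14.2% higher and 10.3% lower of all genes. At the control edge the counts were 2 and 2, 2 and 0, 2 and 1, and 2 and 0 in the same order, against 5.4% and 7.63% of all genes. Of the 11 measured proteins that bind fibrils, 4 were higher over the whole rIL7 section, where 7.72% of all genes were, namely Prelp (2.37-fold), Ogn (2.09-fold), Bgn (1.70-fold) and Dcn (1.61-fold), and Lum was lower (0.657-fold), against 5.95% of all genes. Bgn and Lum had rIL7 edge ratios of 6.4 and 6.98, but Dcn and Prelp had 0.819 and 0.435. Fn1 and Sparc, the most abundant of the list, had section ratios of 1.45 and 0.920. Of 14 basement membrane partners, Lama4 was higher (1.55-fold) and Lamb3 and Lama2 were lower (0.277-fold and 0.558-fold, from 29 and 9 and from 16 and 10 UMIs), and the abundant Hspg2 and Lamb1 were at 1.19 and 0.966. Of 9 collagen receptors none passed 1.5-fold, with Itgb1 at 1.03, Ddr2 at 0.946, Itga10 at 0.693 and Itga11 at 0.669. Of 9 genes of collagen degradation and its inhibitors, 4 were higher, namely Ctsk (3.83-fold), Mmp9 (2.83-fold), Mmp13 (1.94-fold) and Timp3 (1.66-fold). The abundant Timp1 and Timp2 were at 1.17 and 1.05.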

How the data were processed

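Per the labels, both libraries were made with the Visium 3′ version 1 protocol, and the submitters' processing notes name Space Ranger 1.1.0 and the mm10 build. The authors deposited raw UMI counts per gene and spot, and the row and column of each spot, which were used as deposited. Image scale factors were not used. As in the study's methods, spots over tissue with under 10% mitochondrial UMIs and over 200 genes were kept. UMIs were summed per section, region or ring and given as counts per 1000000 (CPM). Intervals are exact 95% Poisson (levels) or binomial (ratios) and cover counting error only. With 1 sample per group nothing was tested; 4 quadrants (split at the median array row and column) describe spread within a section. Edge spots lay within 2 grid steps of tissue-free positions connected to the outside. For gene counts, 0 UMIs were set to a floor of 3. Correlations used spots thinned to 5000 UMIs.

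Members, classes, partner and marker lists were chosen with earlier results of these data known. Members with at least 500 UMIs were named singly, sparser ones if past 1.5-fold with an interval excluding 1 and where a count is 7 or fewer; of each partner list, the 2 with most UMIs, the 2 with the largest ratio and those past 1.5-fold. Exceptions chosen after their values were seen are Adamts2, Lox, Bgn, Lum, Dcn and Prelp edge ratios. Coordinates come from RefSeq GRCm38.p6, matched by symbol for 26 of 26 members. Calculations, run with Python 3.11.15, scipy 1.17.1 and, for TMM scaling, edgeR 4.0.16, were tested on simulated data. Alternatives were other scalings, spot filters, edge depths and weights.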

Additional observations from a re-analysis of the deposited data

Results flagged for a closer look

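Col3a1 and Col14a1 had edge ratios on opposite sides of 1 in the sections, each with a counting interval that excluded 1 in both. The log2 edge ratio of Col3a1 was higher by 1.53 in the rIL7 than in the control section. In the quadrants the ratio of Col3a1 was 0.735 to 1.05 in the control, above 1 in 2 of 4, and 1.31 to 4.28 after rIL7. The log2 edge ratio of Col14a1 was higher by 3.26, from 4 control and 40 rIL7 edge UMIs. Its quadrants had ratios of 0 to 0.548 in the control and 0.795 to 9.01 after rIL7, where 1 quadrant was under 1 and 2 quadrants held 19 and 13 of the 40 edge UMIs. With 1 section per group neither difference was tested.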

How the results depend on the processing

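All log2 values below are for the fibrillar, basement membrane and remaining classes in that order. For rIL7 over control (0.11, 0.08 and 0.01), interior spots alone gave -0.18 and 0.0026 for the first 2, equal weight per spot 0.21 and 0.14, and leaving out the most abundant member (Col1a2, Col4a1 or Col16a1) 0.23, -0.048 and -0.12. For edge over interior in the control (0.02, -0.02 and 0.07), an edge of 1 step gave 0.063 for fibrillar genes, equal weights 0.15, 0.088 and 0.13, and leaving out the top member 0.18 for the remaining classes. For the rIL7 section (1.13, 0.31 and 0.06), an edge of 1 step gave 1.44 and 0.59, 3 steps 0.99 and 0.23, equal weights 0.38 for basement membrane genes and -0.011 for the remaining classes, and leaving out the top member 1.57 for fibrillar genes and 0.40 for the remaining classes. The edge ratio of Col23a1 in the rIL7 section, from 6 edge UMIs at 2 steps, reversed to -0.81 at 1 step, where its level was 0.551 CPM. Of the counts past 1.5-fold, the lower members in rIL7 over control became 1 at 2-fold and 3 with at least 100 UMIs, the higher ones 0 in the interior, the higher ones at the control edge 1 at 2-fold, and the lower ones 1 at 2-fold at either edge. The cause of these shifts was not tested. TMM and median-of-ratios scaling moved all log2 ratios by 0.011 and 0.012. Leaving out spots with skin or muscle markers, an alternative chosen after seeing the data, changed no class or member beyond its interval. No paired analysis was possible because each group held 1 section, and for the same reason no replicate could be left out.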

Other observations

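Outside the family, the genes whose spot levels were most like the fibrillar sum were Cd74, H2-Ab1, Apoe, H2-Eb1, H2-Aa, C1qa, Tmsb4x and Lyz2, out of 1779 candidates that averaged 0.5 UMI or more per thinned spot in both sections. Most of them are known from antigen-presenting cells and macrophages: Cd74, H2-Ab1, H2-Eb1 and H2-Aa belong to the MHC class II pathway, and C1qa and Lyz2 are macrophage genes. Their mean Spearman rho over both sections was 0.157 to 0.196, while the median of all candidates was -0.0038. Points are spots of the same libraries and neighbors share tissue, and both sums were counted at equal depth. For the type IV sum the highest value was 0.086 (Fabp4), too weak to be read in such sparse counts.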
